A study of Homo sapiens with 4 samples.

Results

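The enzymes described here modify collagen before and after it leaves the cell: the lysyl oxidases LOX, LOXL1, LOXL2, LOXL3 and LOXL4, the lysyl hydroxylases PLOD1, PLOD2 and PLOD3, and the prolyl 4-hydroxylase alpha subunits P4HA1 and P4HA2. They were taken by gene symbol from the deposited tables, and all 10 symbols were found among 19381 genes. RNA was sequenced from SK-LMS-1, a human cell line labelled as a uterine leiomyosarcoma, a malignant tumour of smooth muscle. One group of 2 libraries came from untreated cells, and the other 2 libraries came from cells given 50 µM 2-D08 for 48 h. That compound, a flavone, blocks attachment of the protein modifier SUMO to its targets. The labels name no vehicle for the untreated cells, and the line is a single tumour line. Separate cultures are not stated for libraries that share a group, and p-values therefore cover the spread between libraries alone, which may be technical.

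Collagen chains are modified in steps. In the endoplasmic reticulum, prolyl 4-hydroxylase hydroxylates prolines, which stabilises the triple helix, and lysyl hydroxylases hydroxylate lysines, which later decide the kind of crosslink. Both use iron, oxygen, 2-oxoglutarate and ascorbate. After secretion, the copper-dependent lysyl oxidases oxidise lysines and hydroxylysines of collagen, and lysines of elastin, to aldehydes that crosslink the fibres. LOX, PLOD2, P4HA1 and P4HA2 are known as hypoxia-inducible genes, and crosslinked matrix is a recognised feature of stiff tumours.

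With treatment, 3 lysyl oxidase transcripts fell and 1 prolyl 4-hydroxylase transcript rose, while none of the 3 lysyl hydroxylase transcripts passed the test. LOXL2 fell 1.96-fold, and LOXL4 and LOXL1, which crosslink matrix like it, also fell. P4HA1 rose by 0.37 on the log2 scale. The test was edgeR's quasi-likelihood comparison of the groups over 12906 genes that passed a filter on low counts, and a gene with an adjusted p under 0.05 was called. All 10 enzymes passed the filter. Of the 10, 4 were called (3 lower, 1 higher), against 33.9% of all tested genes (16.9% lower and 17.1% higher). The median log2 fold change was -0.01 over the 10 enzymes and -0.00 over all tested genes. The share called among the enzymes was near the background.

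Library totals ran from 14796702 to 31300635 counts. In untreated replicate 1 and treated replicate 2, 89% and 88.8% of nonzero counts were even numbers, against 48.4% and 47.9% in the others. Double counting of reads there is possible and was not tested. With their counts halved, the same 4 enzymes were called and none was added. Of 7 smooth muscle markers DES had 0 counts in all 4 libraries, and the summed level of the list was 38.97 and 36.99 CPM untreated against 21.6 and 22.2 CPM treated. CPM is the count scaled to library size, here after TMM scaling. Fibroblast markers summed to 130.4 and 125 CPM untreated and to 125 and 102 CPM treated, with DPT at 0. Most of that sum was THY1, which was not called (98.8 and 94.7 CPM untreated, 93.8 and 72.1 treated). Epithelial markers summed to 261 and 232 CPM untreated and to 237 and 203 CPM treated. Most of this was KRT18, also not called (217 and 194 CPM untreated, 210 and 182 treated). These 2 sums thus mainly follow 1 gene each. The smooth muscle sum likewise mainly follows TAGLN (27.1 and 26.1 CPM untreated, 14.95 and 14.6 treated). In that list MYH11 (0.472 to 0.778 CPM) and MYOCD (0 to 0.133 CPM) were low in every library. Of the tested markers 2 of 5 were lower in the smooth muscle list (log2 fold changes of -0.85 for TAGLN and -1.03 for CNN1), 2 of 4 in the fibroblast list (PDGFRB -1.94, LUM -1.14, with PDGFRA higher at 0.35) and 2 of 4 in the epithelial list (KRT19 -1.49, KRT8 -0.47). PDGFRA lost its call in 7 of 16 alternatives, among them DESeq2 (adjusted p = 0.0924) and leaving out untreated replicate 1 (0.172) or 2 (0.381). KRT8 lost its call in 8 of 16, among them DESeq2 (adjusted p = 0.0702), halved counts (0.0544) and leaving out untreated replicate 1 (0.455) or treated replicate 2 (0.153). CNN1, PDGFRB and LUM lost theirs on both TPM scales, and CNN1 also without untreated replicate 2 (adjusted p = 0.0532). Immune markers (0.797 to 1.78 CPM) and endothelial markers (1.28 to 2.07 CPM) were low in every library, with 0 of 1 and 1 of 2 tested markers called; the latter was 0 of 2 with DESeq2 and without untreated or treated replicate 2. The libraries come from a single cell line and not from a mixed tissue. Fewer cells with a marker and less RNA per cell cannot be told apart in bulk RNA. The part of these markers in the results below was not tested.

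Sequence around the start sites is given because LOX, PLOD2, P4HA1 and P4HA2 are known to respond to hypoxia. A hypoxia-inducible factor binds a core written ACGTG (or GCGTG). RefSeq windows (GRCh38.p14) of 250 bases before to 50 after the most upstream listed start were found for 9 of the 10 genes, all but LOXL2. ACGTG, read on both strands, was present in LOX (4 matches), PLOD2 (2) and P4HA1 (1), that is in 3 of 9 windows, and in 21.6% of 27305 promoters searched the same way. Each match is shown with 10 bases on either side, on the gene's strand, with the match in capitals; CACGT is the same core read from the other strand.
LOX, chr5:122078430-122078454, minus strand: tccctgtgcaACGTGtctgggggga
LOX, chr5:122078361-122078385, minus strand: gtccgccttgCACGTttccaatcgc
LOX, chr5:122078343-122078367, minus strand: caatcgcattACGTGaacaaatagc
LOX, chr5:122078287-122078311, minus strand: aactttgcaaACGTGccagaaagtt
PLOD2, chr3:146161370-146161394, minus strand: tgagcctccaCACGTagccgcaggc
PLOD2, chr3:146161316-146161340, minus strand: aacagtccagACGTGgggcccagga
P4HA1, chr10:73096938-73096962, minus strand: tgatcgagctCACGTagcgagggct
The matches lay 42 to 185 bases before the listed RefSeq start in LOX, 200 and 146 bases in PLOD2 and 86 bases in P4HA1. GENCODE release 29, whose gene positions are given with each enzyme, starts these genes further upstream, by 101 bases in LOX, 2469 in PLOD2 and 108 in P4HA1. By that annotation 2 of the LOX matches lay before the gene and 2 in an exon, the PLOD2 matches lay in an intron and the P4HA1 match lay in an exon. Of these 3 genes P4HA1 alone was called, and LOX, with the most matches, had a log2 fold change of 0.00. A match is only a description of the letters, and a relation of matches to fold changes was not tested. The other motifs searched on both strands were GCGTG (36.4% of promoters; found in PLOD1 and PLOD2), the SP1-type hexamer GGGCGG (44.5%; found in LOX, LOXL4, PLOD1, PLOD2 and PLOD3), the AP-1 site TGANTCA (7.72%; in none of the 9) and the TEAD-type GGAATG (14.1%; in LOXL3 and P4HA2). No motif contains another, although ACGTG and GCGTG can share letters across strands.

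LOXL4, the enzyme with the largest fitted fall, had 7 matches to GGGCGG in its window. PLOD1 and PLOD3, which were not called, had 4 each, and LOX and PLOD2 had 1 each. LOXL1 and P4HA1, which were called, had 0. The stretch upstream of all annotated exons of LOXL4 is printed here with GGGCGG or its reverse complement in capitals. That stretch holds 5 of the 7 matches. It has 88.1% G and C, against a mean of 57.2% over all windows, and matches are easily found in such sequence.
LOXL4, chr10:98268251-98268444, minus strand: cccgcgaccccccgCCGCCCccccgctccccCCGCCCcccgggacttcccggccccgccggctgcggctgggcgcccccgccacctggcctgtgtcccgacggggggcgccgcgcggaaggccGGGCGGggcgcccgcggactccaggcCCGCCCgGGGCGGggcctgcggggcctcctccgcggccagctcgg

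**Figure D1:**
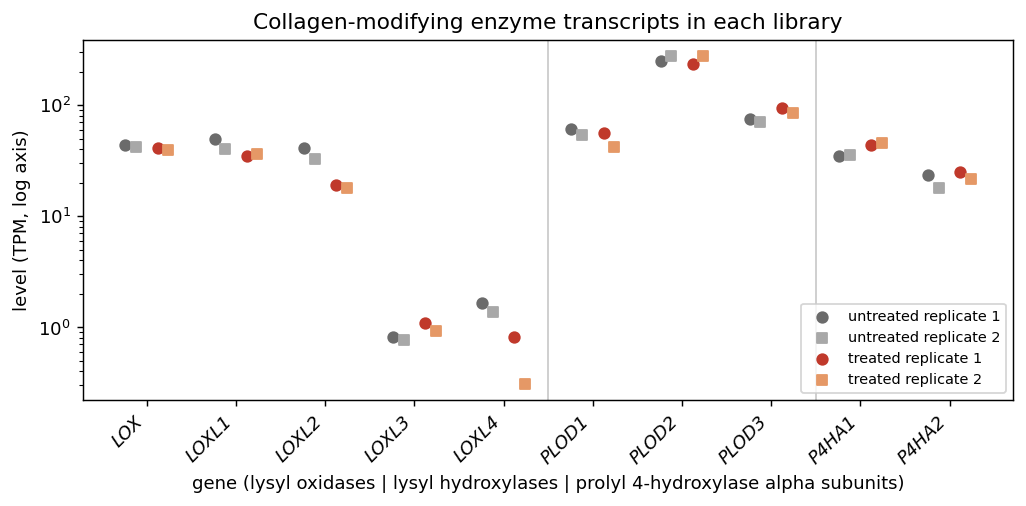
Level of each enzyme transcript in TPM (log axis) in each of the 4 libraries, grouped by family; each point is 1 library. PLOD2 is highest (234 to 278 TPM), LOXL3 and LOXL4 lie lowest, and both treated libraries lie below both untreated ones for LOXL1, LOXL2 and LOXL4. The same order holds for LOX, and the reverse order for LOXL3, PLOD3 and P4HA1. Of these, LOX, LOXL3 and PLOD3 were not called. How many of all tested genes separate in this way, in TPM or CPM, was not counted.

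Per transcript length, the untreated cells had PLOD2 as the most abundant of the enzymes, followed by PLOD3, PLOD1, LOXL1, LOX, LOXL2, P4HA1 and P4HA2, with LOXL4 and LOXL3 far below. Mean untreated TPM values, which are scaled for transcript length and depth, were 263 ± 20.8 for PLOD2, 72.7 ± 3.17 for PLOD3 and 57.3 ± 4.59 for PLOD1 (SD, n = 2). LOXL1 (45.1 ± 6.70), LOX (42.7 ± 1.05), LOXL2 (36.9 ± 5.53) and P4HA1 (35.3 ± 0.516 TPM) followed. P4HA2 stood at 20.7 ± 4.04 TPM, LOXL4 at 1.51 ± 0.212 TPM and LOXL3 at 0.790 ± 0.0283 TPM. Neighbours in this order overlapped between libraries for LOXL1 and LOX and for LOXL2 and P4HA1, and the others did not. In the treated libraries P4HA1 (44.7 ± 1.07 TPM) stood above LOX (40.4 ± 1.19) and LOXL1 (35.8 ± 1.13), and LOXL2 (18.6 ± 0.778) stood below P4HA2 (23.2 ± 2.42 TPM, SD, n = 2). PLOD2 exceeded 96.7% of all tested genes in untreated TPM, LOX 73.9% and LOXL3 7.73%. The deposited TPM columns share no common total: they summed to 761770 and 745964 untreated and to 741705 and 716934 treated. Small TPM differences between groups, here and on the TPM scales below, include this difference in totals.

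LOXL2 encodes a secreted lysyl oxidase with scavenger receptor domains that acts on collagen IV of basement membranes as well as on fibrillar collagen. It lies on chromosome 8 (23297189 to 23425328, minus strand, GRCh38). LOXL2 had 93.6 and 82.9 CPM untreated and 47.0 and 43.2 CPM treated. Both treated libraries were lower, with no overlap, and the same held in TPM (40.8 and 32.95 against 19.1 and 18.0). The log2 fold change of LOXL2 was -0.97 ± 0.10 (SE; edgeR adjusted p = 1.34e-05), a 1.96-fold lower level. Of the 12906 tested genes 485 had a lower fold change. The call for LOXL2 held in all 16 alternative settings (log2 fold change -1.06 to -0.87, adjusted p 1.17e-30 to 0.0171). It shares 2.1% of its exonic bases with ENTPD4 on the same strand.

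LOXL4, a related scavenger-receptor lysyl oxidase, had 126 and 59 counts untreated against 32 and 26 treated, which is 4.25 and 3.57 CPM against 2.13 and 0.843 CPM. Every treated value lay below every untreated one, and the treated libraries differed from each other more than 2-fold. The log2 fold change of LOXL4 was -1.53 ± 0.37 (SE; edgeR adjusted p = 0.00612). It was -2.22 without treated replicate 1 and -0.90 without treated replicate 2. It was -0.55 on the deposited transformed values, and on the TPM scales the call was lost (adjusted p of 0.0741 with log2(TPM + 1) and 0.0965 with log2(TPM + 0.1)). The gene lies on chromosome 10 (98247690 to 98268250, minus strand).

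LOXL1, which crosslinks elastic fibres through its binding to fibulin-5 and is encoded on chromosome 15 (73925989 to 73952137, plus strand), had 39.2 and 36.3 CPM untreated and 29.2 and 24.6 CPM treated. The treated libraries were lower without overlap. The log2 fold change of LOXL1 was -0.50 ± 0.12 (SE; edgeR adjusted p = 0.00715). This call was lost without untreated replicate 1 (adjusted p = 0.134) and on the TPM scales (adjusted p of 0.161 for log2(TPM + 1) and 0.159 for log2(TPM + 0.1)). An antisense gene, LOXL1-AS1, overlaps 9.21% of its exonic bases, and whether counting used strand is not given in the sources used here.

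LOX, the founding lysyl oxidase on chromosome 5 (122063195 to 122078360, minus strand), had 111 and 118 CPM untreated and 114 and 116 CPM treated. Its groups overlapped. The log2 fold change was 0.00 ± 0.09 (SE), with a 95% interval of -0.19 to 0.20 (edgeR adjusted p = 0.981). In TPM LOX was 43.5 and 42 untreated against 41.2 and 39.5 treated, a non-overlapping but small difference that did not pass limma on either TPM scale (-0.08 in both).

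LOXL3, a further scavenger-receptor lysyl oxidase on chromosome 2 (74532414 to 74555690, minus strand), had 39 and 26 counts untreated and 34 and 61 treated, or 1.31 and 1.57 CPM against 2.26 and 1.98 CPM. The groups did not overlap, but at this depth the difference did not pass the test (log2 fold change 0.56 ± 0.34 SE, 95% interval -0.18 to 1.29, edgeR adjusted p = 0.227). HTRA2 and DOK1 on the other strand overlap 14.3% and 4.95% of its exonic bases, so its few reads are uncertain.

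**Figure D2:**
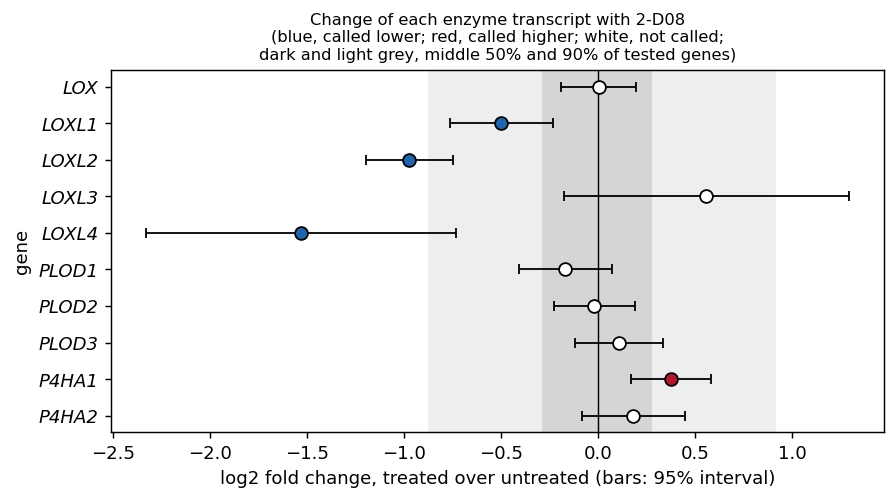
Log2 fold change (treated over untreated) of each enzyme with its 95% interval from edgeR; blue points were called lower, red higher, and white did not pass. The dark and light grey bands hold the middle 50% (-0.28 to 0.27) and 90% (-0.87 to 0.91) of tested genes; LOXL2 and LOXL4 lie below the 90% band.

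Within the lysyl oxidase family the summed level went from 137 and 117 TPM untreated to 97.2 and 95.35 TPM treated. LOX itself took 31.9% and 35.8% of that sum untreated and 42.4% and 41.5% treated. The share of LOXL2 went from 29.9% and 28.1% to 19.7% and 18.9%. The share of LOXL1 overlapped between groups (36.5% and 34.3% against 36.0% and 38.4%). LOX held the largest share in both treated libraries, and LOXL1 or LOX did in the untreated ones. These shares are descriptions over 2 libraries per group and were not tested.

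**Figure D3:**
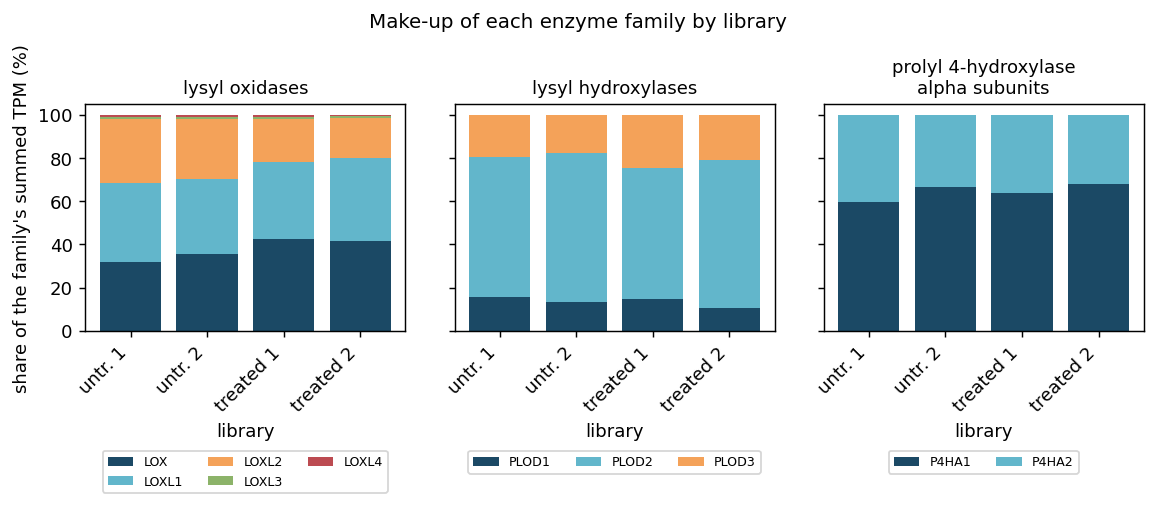
Share of each family's summed TPM (percent) taken by each member, 1 bar per library, for lysyl oxidases, lysyl hydroxylases and prolyl 4-hydroxylase alpha subunits. LOXL2 takes 29.9% and 28.1% of the lysyl oxidase sum untreated and 19.7% and 18.9% treated, whereas PLOD2 takes 60.8% to 69.0% of the lysyl hydroxylase sum in every library.

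The lysyl hydroxylases differ in the lysines they prefer. PLOD2 encodes the enzyme for lysines in the telopeptides, whose hydroxylation leads to stable pyridinoline crosslinks. PLOD2, on chromosome 3 (146069440 to 146163653, minus strand), had 598 and 647 CPM untreated and 566 and 661 CPM treated. The groups overlapped, and the treated pair lay at both ends of the range. The log2 fold change of PLOD2 was -0.02 ± 0.10 (SE), with a 95% interval of -0.23 to 0.19 (edgeR adjusted p = 0.896).

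PLOD1 encodes the enzyme for lysines within the triple helix, and lies on chromosome 1 (11934205 to 11975538, plus strand). PLOD1 had 124 and 115 CPM untreated and 119 and 94.0 CPM treated, with overlapping groups and the lowest value in treated replicate 2. It did not pass (-0.17 ± 0.11 SE, edgeR adjusted p = 0.256), although it was called lower without treated replicate 1 (-0.35, adjusted p = 0.000296). PLOD3 encodes an enzyme that also glycosylates hydroxylysine, and lies on chromosome 7 (101205977 to 101218420, minus strand). PLOD3 had 89.8 and 82.9 CPM untreated and 102 and 84.8 CPM treated, again overlapping. It did not pass (0.11 ± 0.11 SE, edgeR adjusted p = 0.454), although it was called higher without treated replicate 2 (0.23, adjusted p = 0.0346). Its sign turned without treated replicate 1 (-0.03). In TPM, PLOD3 was higher in both treated libraries (95.03 and 84.55) than in both untreated ones (74.96 and 70.48). That difference did not pass limma with log2(TPM + 1) (0.30, adjusted p = 0.115) or log2(TPM + 0.1) (0.30, adjusted p = 0.113). ZNHIT1 on the other strand overlaps 7.56% of its exonic bases. Of the 3 genes, 0 were called by edgeR, 0 had an unadjusted p under 0.05, and 0 were called with DESeq2. Summed over the family, lysyl hydroxylase transcripts stood at 384 and 402 TPM untreated and 385 and 402 TPM treated.

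The prolyl 4-hydroxylase alpha subunits carry the catalytic site and pair with the beta subunit, protein disulfide isomerase (P4HB). P4HA1, on chromosome 10 (73007217 to 73096974, minus strand), had 66.2 and 69.8 CPM untreated and 84.4 and 91.4 CPM treated. Both treated libraries were higher, with no overlap, as in TPM (34.9 and 35.7 against 43.9 and 45.5). The log2 fold change of P4HA1 was 0.37 ± 0.10 (SE; edgeR adjusted p = 0.00856), a 1.30-fold higher level. It did not pass when untreated replicate 1 (adjusted p = 0.190) or untreated replicate 2 (0.0790) was left out, nor on either TPM scale (0.0812 and 0.0805). P4HA2, on chromosome 5 (132191838 to 132295315, minus strand), had 40.0 and 33.0 CPM untreated and 44.3 and 39.2 CPM treated. Its groups overlapped, and it did not pass (0.18 ± 0.12 SE, 95% interval -0.08 to 0.45, edgeR adjusted p = 0.277). The beta subunit gene P4HB, named after its values were seen because it completes the enzyme, had 599 and 562 CPM untreated and 547 and 461 CPM treated and did not pass (-0.21, edgeR adjusted p = 0.123).

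The enzymes were next set against their substrates. Of 11 fibrillar collagen genes 8 were tested, and 6 were lower and 1 higher, with a median log2 fold change of -0.94. COL1A2 (-2.01), COL1A1 (-1.19), COL11A1 (-1.64) and COL3A1 (-2.59) fell. COL3A1 had few counts (136 and 63 untreated, 7 and 26 treated). Its log2 fold change was -3.18 without treated replicate 2, -0.94 with log2(TPM + 1) and -0.87 on the transformed values. The 1 higher gene was COL27A1 (0.56), named after its values were seen; it was not called on either TPM scale. Summed over the list, fibrillar collagen transcripts went from 457 and 398 TPM untreated to 155 and 136 TPM treated. For every 100 TPM of COL1A1 and COL1A2 together there were 11.7 and 12.8 TPM of LOX untreated and 36.7 and 41.2 TPM treated. PLOD2 stood at 66.5 and 84.7 TPM on that scale untreated and at 209 and 287 TPM treated. P4HA1 went from 9.36 and 10.9 to 39.1 and 47.3 TPM on it. LOXL2, which fell less than COL1A1 and COL1A2, went from 10.9 and 10.1 to 17.0 and 18.8 TPM per 100 TPM of type I collagen chains. The values of LOXL4 overlapped between groups on this scale (0.445 and 0.415 against 0.721 and 0.323 TPM). The denominator itself went from 373 and 328 TPM untreated to 112 and 96.0 TPM treated. A gene that stayed level therefore rises on this scale, and such a rise is not particular to these enzymes. How many of all tested genes separate on it was not counted. The ratios share 1 denominator per library and were not tested.

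**Figure D4:**
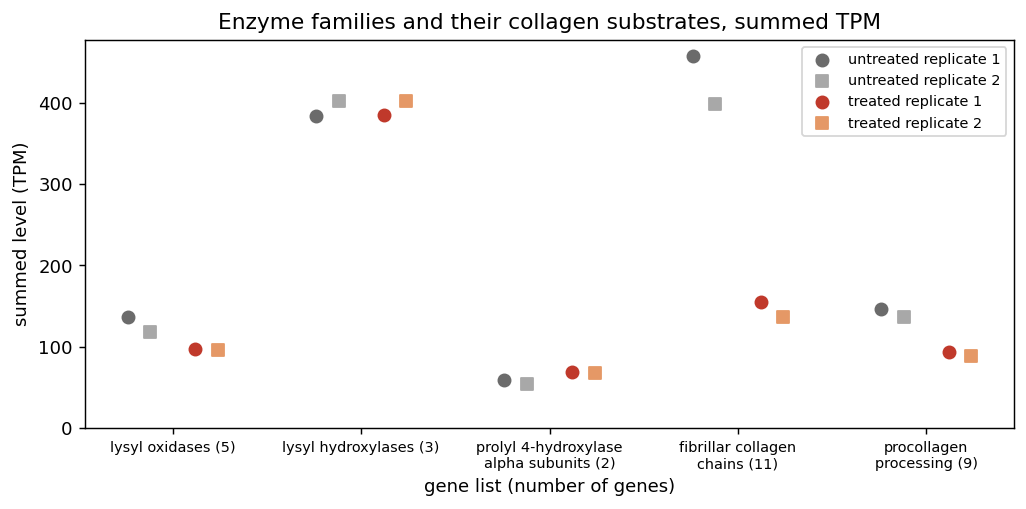
Summed TPM of each enzyme family, of the fibrillar collagen chains and of the procollagen processing genes, 1 point per library. Fibrillar collagens go from 457 and 398 TPM untreated to 155 and 136 TPM treated, while lysyl hydroxylases stay between 384 and 402 TPM.

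Other proteins of collagen hydroxylation and folding, 14 genes all tested, were higher in 2 and lower in 2 cases with a median log2 fold change of -0.19. FKBP10, a peptidyl-prolyl isomerase of the endoplasmic reticulum that assists the PLOD2 enzyme, had 92.4 and 81.9 CPM untreated and 63.1 and 51.9 CPM treated. FKBP10 fell (-0.61 ± 0.11 SE, edgeR adjusted p = 0.00103), and lost its call on both TPM scales (0.0952 and 0.0925). TMEM38B, an ion channel gene of the endoplasmic reticulum whose loss disturbs collagen hydroxylation, rose by 0.74 (edgeR adjusted p = 0.000142). FKBP14 was higher (0.31) and SERPINH1, the collagen chaperone HSP47, lower (-0.28). FKBP14 lost its call with DESeq2 (adjusted p = 0.0527), and also without untreated replicate 1 (0.409), untreated replicate 2 (0.105) or treated replicate 2 (0.0890). SERPINH1 lost it with DESeq2 (0.0655) and library size only (0.0585), and without the same libraries (0.447, 0.132 and 0.0973). Over the list, 5 genes were lower without treated replicate 1 and 4 with a replicate block. Lower calls numbered 0 on both TPM scales, and 1 with DESeq2, library size only, thinned counts or any of the other 3 libraries left out. Higher calls numbered 1 with DESeq2, on both TPM scales and without any of those 3 libraries.

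Procollagen processing genes, which encode the proteases that trim procollagen and their enhancers, were higher in 1 and lower in 3 of 7 tested (median -0.35). PCOLCE, which enhances cleavage of the C-propeptide, had 64.5 and 58.7 CPM untreated and 27.8 and 26.3 CPM treated, without overlap. PCOLCE fell by 1.19 on the log2 scale (edgeR adjusted p = 3.78e-06). The tolloid-like protease TLL1 (-0.97) and the N-propeptidase ADAMTS14 (-1.66) fell, and ADAMTS3 rose by 1.08. ADAMTS14 had few counts (64 and 31 untreated, 11 and 18 treated). ADAMTS3 was also low, at 3.98 and 2.54 CPM untreated and 6.64 and 7.46 CPM treated. The call of ADAMTS14 did not hold without untreated replicate 1 (adjusted p = 0.0819), and TLL1, ADAMTS3 and ADAMTS14 lost theirs on both TPM scales. Over the list, 5 genes were lower without treated replicate 1 and 5 with a replicate block, against 1 on both TPM scales. BMP1, the protease that also frees LOX from its propeptide, was named after its values were seen and did not pass (-0.35, adjusted p = 0.121).

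Elastic fibre genes and LOX partners were higher in 0 and lower in 6 of 9 tested (median -0.58). The number higher was 0 at an unadjusted edgeR p under 0.05 and 0 with DESeq2. FN1 (fibronectin, -1.12), FBN2 (fibrillin-2, -0.68), THBS1 (-0.49) and LTBP4 (-0.79) were among those that fell. LTBP4 lost its call on both TPM scales. Elastin itself (ELN), named after its values were seen, lay at 0.337 to 0.465 CPM and was not tested.

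Genes that supply cofactors were higher in 2 and lower in 2 of 8 tested (median 0.03). ATP7A, the pump that loads copper into secreted enzymes such as the lysyl oxidases, had 63.5 and 57.9 CPM untreated and 39.9 and 41.9 CPM treated. ATP7A fell (-0.57 ± 0.11 SE, edgeR adjusted p = 0.00104), and lost its call on both TPM scales (0.112 in both). The transferrin receptor gene TFRC, which takes up iron, went from 196 and 192 to 546 and 550.0 CPM and was called higher (edgeR adjusted p = 6.06e-08), and IDH1, which makes 2-oxoglutarate, fell by 0.40. The iron exporter gene SLC40A1 was called higher at low levels (1.31, from 0.607 and 0.605 to 1.20 and 1.75 CPM). Without untreated replicate 1 or 2 IDH1 did not pass (adjusted p of 0.0514 and 0.0951), and SLC40A1 lost it without those (0.190 and 0.115) and without treated replicate 2 (0.324), and with DESeq2 (0.141). Higher calls in this list numbered 1 in those 4 fits, on both TPM scales and at 5 CPM or more, and lower calls 1 without either untreated library and on both TPM scales.

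Hypoxia-inducible factor subunits, prolyl hydroxylases and target genes, a list chosen because LOX, PLOD2, P4HA1 and P4HA2 are known targets, were higher in 2 and lower in 4 of 14 tested (median 0.03). ADM rose by 0.97, whereas MXI1 (-0.81), VEGFA (-0.33) and ARNT (-0.39), the partner subunit of the factors, fell. Without untreated replicate 1 or 2 VEGFA did not pass (adjusted p of 0.157 and 0.186), nor did ARNT (0.210 and 0.0970), and the list then had 1 higher and 1 lower call. Higher calls numbered 4 without treated replicate 2 and 5 with a replicate block. On both TPM scales 1 was higher and 2 were lower.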

How the data were processed

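The members and gene lists were chosen with earlier results of these data known. The tools listed are STAR 2.7.8a, cutadapt 3.4 and DESeq2, with the GRCh38 build, per the submitters' processing notes. No source used here gives the counting tool, strand handling or annotation. Deposited were 3 tables: whole-number read counts, TPM values, and a table named as normalised counts whose deposited values lie on a log2-like scale. Treated columns were matched to sample titles by compound and replicate number. Untreated columns carry only the cell line and a number, and were read as the controls of that number. Per the labels' protocols, ribosomal RNA was depleted.

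Counts were filtered with filterByExpr (minimum count 10), scaled with TMM and fitted in R 4.3.3 with edgeR 4.0.16 (glmQLFit, robust; two-sided; Benjamini-Hochberg over 12906 genes). Standard errors derive from the F statistic, and intervals are at 95%. limma 3.58.1 and DESeq2 1.42.0 served as alternatives. Positions and exons are from GENCODE release 29. Named beyond the 10 enzymes were up to 4 genes per list with the smallest p and a mean of at least 1 CPM, and the 3 genes nearest in pattern to LOX, PLOD2 and P4HA1. On simulated data for this comparison, with 200 of 12784 genes changed, 74.6% of 1.5-fold, 89.4% of 2-fold and 100% of 4-fold changes were recovered, and 4.37% of 183 calls were false. The simulation gave every gene the same spread setting (dispersion 0.00727) and did not imitate the even counts. It also changed far fewer genes than the 4376 called in the real data. These rates therefore need not hold for the real counts.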

Additional observations from a re-analysis of the deposited data

How the results depend on the processing

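LOXL2 was called in all 16 alternatives, and of the 4 called enzymes 0 turned sign. On the scale of log2(TPM + 1) limma called 1598 genes (702 higher, 896 lower), and on log2(TPM + 0.1) it called 1608 (714 and 894). Both fits called 1 enzyme (0 higher, 1 lower), and the cause was not tested. Leaving out each library in turn gave 1866 to 6077 called genes, of which 949 to 2931 were higher and 917 to 3146 lower. Those fits called 2 to 5 enzymes (0 to 2 higher, 2 to 4 lower), with 0 higher without untreated replicate 1 or 2; a lone library was assumed to vary like the other group. A replicate block raised the count to 6239 called genes and left the same 4 enzymes called. Same-numbered libraries are not stated to be paired, and their deviations from group means correlated at 0.151 over 12906 genes and at 0.551 over the 10 enzymes. Of the 34 other named genes that were called, 14 kept their call in all alternatives that gave a value and 0 turned sign. Among named genes, signs turned for those near 0 that were not called. LOX gave -0.0057 without a filter, -0.0038 at 5 CPM or more, -0.081 and -0.082 with limma on TPM, -0.0020 with transformed values and -0.014 with thinned counts. PSRC1 gave -0.0021 without a filter, -0.00015 at 5 CPM or more, -0.0995 and -0.103 with limma on TPM and -1.08e-05 with transformed values, and STMP1 gave -0.0563 and -0.0571 on the TPM scales. IFT27 gave 0.0186 with limma-voom, 0.106 and 0.115 on the TPM scales and 0.0161 with thinned counts, and CRLF3 gave 0.0090 with limma-voom. Fits without a library ran from -0.0447 to 0.0473 for LOX, -0.140 to 0.0845 for PLOD2, -0.0329 to 0.234 for PLOD3, -0.179 to 0.0254 for KRT18, -0.0288 to 0.0362 for PSRC1, -0.0453 to 0.0214 for RDH11, -0.0202 to 0.0570 for STMP1, -0.130 to 0.0932 for IFT27, -0.146 to 0.0924 for CRLF3 and -0.141 to 0.0699 for STYX. The low counts of LOXL3 and LOXL4 limit the precision of their values.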

Other observations

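The genes whose pattern over the 4 libraries lay nearest to a member, among 10501 candidates with a mean of at least 5 CPM, were found by the Euclidean distance between log2 CPM values centred on each gene's mean. For P4HA1 they were MFAP3 (distance 0.00883), MCUR1 (0.0146) and MCFD2 (0.0189), which rose by 0.37, 0.36 and 0.37 on the log2 scale. For LOX they were PSRC1 (0.0192), RDH11 (0.0238) and STMP1 (0.0244), and for PLOD2 IFT27 (0.00668), CRLF3 (0.0147) and STYX (0.0149). With 4 libraries and so many candidates, near matches are easily found.

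The deposited TPM and count values order the treated libraries differently for LOXL1: treated replicate 2 was above treated replicate 1 in TPM (36.6 against 35.0) and below it in CPM (24.6 against 29.2). For LOX the treated order also differed (replicates 1 and 2 at 41.2 and 39.5 TPM but 114 and 116 CPM). The untreated order differed for LOX (43.5 and 42.0 TPM, 111 and 118 CPM) and for LOXL3 (0.81 and 0.77 TPM, 1.31 and 1.57 CPM). Among the 10 enzymes, 8 counts were even in untreated replicate 1 and 9 in treated replicate 2, against 3 in untreated replicate 2 and 7 in treated replicate 1.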
